A study of Mus musculus with 12 samples.

Results

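Nitrergic neurons with more Npy than Cartpt were taken from cells of the myenteric plexus of the adult mouse intestine. Each well of a plate received 1 sorted cell. A well was a member where it held at least 1000 UMIs (unique molecular identifiers, which count RNA molecules), at least 500 genes, under 20% mitochondrial UMIs, at least 2 Nos1 UMIs and more raw Npy than raw Cartpt UMIs. Members were thus selected on their raw Nos1, Npy and Cartpt UMIs and on depth. By this rule 93 of the 528 retained CD49b- wells were members, of 964 retained and 1150 deposited wells in the series. Of the remaining CD49b- wells, 161 also had at least 2 Nos1 UMIs but no more Npy than Cartpt, and are called the other Nos1 wells. A further 274 had fewer than 2 Nos1 UMIs.

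All mice were C57BL/6 and carried the Dclk1-tdTom label, and all received 3 mg tamoxifen, so every group shares the label, the strain and the drug. The longitudinal muscle with its myenteric plexus was dissociated, and tdTom+ cells were sorted into CD49b- (neuronal) and CD49b+ (glial) plates, so neurons without the label were not sampled. The 3 homeostasis plates came from mice given tamoxifen at 8 weeks (plates 1 and 3) or 9 weeks (plate 2) of age and were collected 10 days later. The 3 irradiated plates came from mice given tamoxifen at 8 weeks (plate 1) or 9 weeks (plates 2 and 3), irradiated with 10.5 Gy 7 days later and collected 3 days after that. Each plate pooled 2 mice, so n = 3 plates in each group. Tests of members or their share between treatments measure the spread between plates. Tests between classes compare sums from the same plate and measure how that difference varies over the plates. The homeostasis plates held 16, 21 and 13 members and the irradiated plates 19, 12 and 12.

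Myenteric nitrergic neurons make nitric oxide with the neuronal synthase encoded by Nos1. They are known as inhibitory motor neurons that relax the gut muscle, and as descending interneurons. Many also release peptides: Npy (neuropeptide Y), Cartpt (the precursor of cocaine- and amphetamine-regulated transcript peptide), Vip (vasoactive intestinal peptide) and Gal (galanin) are made by partly separate sets of these cells.

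Members had a median of 6338 UMIs a well, the other Nos1 wells 8931 and the wells with fewer Nos1 UMIs 6644.5. Their median mitochondrial shares were 1.55%, 1.76% and 1.98% in that order. Of 12 pan-neuronal markers, 10 had a UMI in the members, with a summed level of 7475 to 9025 CPM on the 6 plates (CPM, the UMIs of a gene scaled to 1000000 UMIs of its class on a plate), and Uchl1 and Nefl were at 0. Uchl1 was at 0 in every other class and in the CD49b+ wells too, while Nefl was at 0 in the members alone. Of 12 enteric glial markers, 9 had a UMI, summing to 188 to 508 CPM against 29498 to 40085 CPM in the CD49b+ plates, and Sox10, Gfap and Foxd3 were at 0. Myh11, Tagln and Des of smooth muscle, Kit and Ano1 of interstitial cells of Cajal, and Csf1r and C1qa of macrophages were at 0. Of these, Myh11, Kit, Csf1r and C1qa were at 0 in the CD49b+ wells too. Other markers had UMIs in the members: 5 of 8 for smooth muscle (11.6 to 83.5 CPM summed) and 1 of 5 for Cajal cells (0 to 19.0 CPM). So did 3 of 8 for macrophages (0 to 43.9 CPM), 4 of 6 for fibroblasts (0 to 73.1 CPM) and 2 of 6 for endothelium (0 to 41.8 CPM). Of the epithelial markers, Lgr5 alone had UMIs in the members, at 240 to 439 CPM, and the same gene stood at 269 to 449 CPM in the wells with fewer Nos1 UMIs. The summed UMIs of the members came to 68367 to 157973 a plate.

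Reads of Cartpt lay in nearly every well of some plates, which bears on a rule that compares Npy with Cartpt. Among wells with fewer than 2 Nos1 UMIs, 60.3%, 90.0% and 96.3% had a Cartpt UMI on the homeostasis plates, with medians of 1, 1.5 and 3 UMIs. On the irradiated plates 100%, 90.4% and 100% had one, with medians of 7, 3 and 6 UMIs, so the treatments overlap. Npy was less even: 28.8% to 56.8% of the same wells had an Npy UMI over the 6 plates. Taking each plate's background, the median of these wells, off both genes before the comparison kept all 93 members and added 6 wells. Because Cartpt was the more common background, this step lowers mostly Cartpt. It could thus hardly drop a member, and keeping all 93 is no test of the rule. Each plate used the same set of cell barcodes, with 95 of 96 barcodes on every plate, so a barcode alone does not name a cell.

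The 3 genes of the rule gave these levels, which are a description because they chose the members. Nos1 (chr5:117781032-117958840, GRCm38) stood at 2092, 1874 and 1916 CPM in the members of the homeostasis plates and at 2172, 2543 and 2516 CPM on the irradiated plates. Npy (chr6:49822710-49829507) stood at 3549, 4735 and 5367 CPM on the homeostasis plates and 5878, 3086 and 4052 CPM on the irradiated plates, against 469 to 803 CPM in the other Nos1 wells. Cartpt (chr13:99898489-99901091) stood at 677, 551 and 720 CPM and then 1848, 728 and 1682 CPM, against 2418 to 11291 CPM in the other Nos1 wells. The rule compares the 2 genes within a well, and the class levels of each gene did not overlap between the 2 Nos1 classes.

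The split between the 2 Nos1 classes was partly graded. In 59 of 93 members Npy made up at least 80% of the Npy and Cartpt UMIs together, and 68 members had an Npy lead of at least 10 UMIs. At the threshold, 6 members led by 1 UMI, with medians of 5.5 Npy and 4.5 Cartpt UMIs, and 3 of the other Nos1 wells had equal counts, with a median of 1 UMI of each. Of all 254 Nos1 wells, 81 had an Npy share between 20% and 80%. The plot of both genes by well shows these values. The 2 classes also differed in how many wells lay close to the Nos1 threshold: 44 of the 161 other Nos1 wells had 2 to 7 Nos1 UMIs, against 10 of the 93 members. The comparison of the 2 classes was therefore repeated with at least 8 Nos1 UMIs in both, a setting chosen after seeing the data, which left 83 members and 117 other wells. It called 106 genes in place of 161, of which 90 were among the 161, and calls of single genes that it did not keep are given with those genes.

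**Figure D1:**
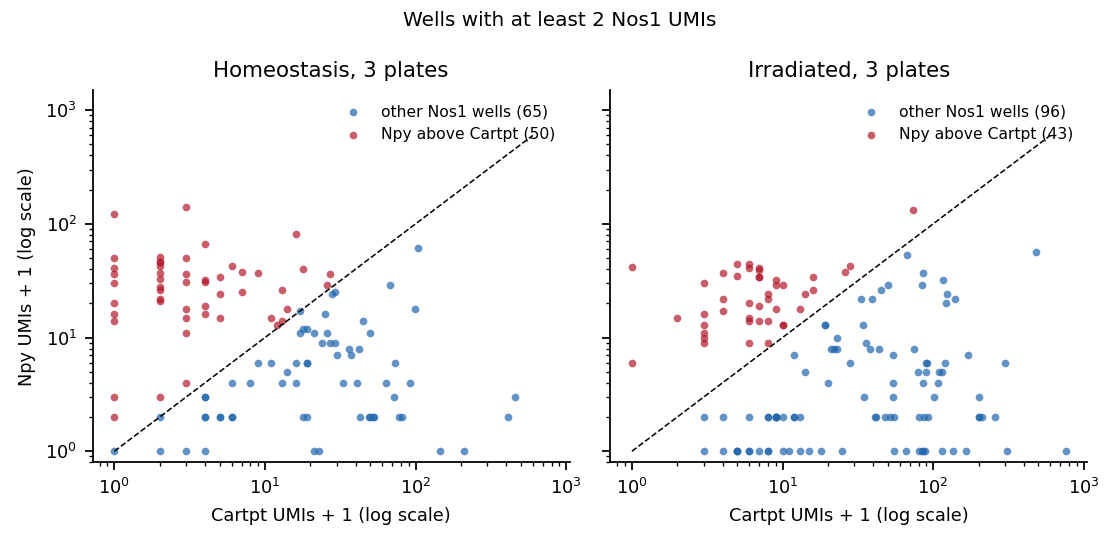
Npy against Cartpt UMIs (each + 1, log axes) in the 254 wells with at least 2 Nos1 UMIs, homeostasis plates on the left and irradiated plates on the right; each point is 1 well and the dashed line marks equal counts. The 93 members (red) lie above the line by rule, 50 on homeostasis and 43 on irradiated plates, and some points of both colours sit close to it.

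Cox8b, Bglap, Ass1 and Rprml are markers that earlier work on these data gave for such wells, and they are described with no test. Cox8b (chr7:140898945-140900446), an isoform of a cytochrome oxidase subunit best known from muscle and brown fat, stood at 1176, 956 and 1027 CPM in homeostasis members and 1764, 1653 and 1185 CPM in irradiated members. In the other Nos1 wells it stood at 193 to 336 CPM, below every member value. Bglap (osteocalcin) averaged 2413 CPM in the members and 2065 CPM in the other Nos1 wells, with overlapping plates. Ass1 (argininosuccinate synthase, which returns citrulline towards the arginine that nitric oxide synthase uses) averaged 3789 and 3520 CPM, and Rprml 482 and 385 CPM, also with overlapping plates. In the wells with fewer Nos1 UMIs the means were 49.8 CPM for Cox8b, 249 CPM for Bglap, 758 CPM for Ass1 and 32.0 CPM for Rprml. Of the 4, then, Cox8b alone set the members apart from the other Nos1 wells on every plate, while the other 3 were shared by both Nos1 classes. Bglap shares 62.9% of its 31-base words with other gene models, mostly Bglap2, and Ass1 shares 43.1%, mostly with Gm5424, so reads of these families may be split between copies.

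Immediate early genes, which are transcribed within a short time of depolarisation, growth factor signals or cell stress, were higher in the members. Against all other CD49b- wells, 16 of the 21 list genes tested were higher and 0 were lower, where 3.00% of all 7028 genes tested were called higher and 3.94% lower. When set against the other Nos1 wells, 12 of 18 were higher and 0 lower, where 2.10% of 3663 genes were higher and 2.29% lower. Calls here and below are edgeR quasi-likelihood tests with Benjamini-Hochberg adjustment over all genes tested, each plate being a block, at an adjusted p below 0.05. The list's median log2 difference was 1.15 against the other CD49b- wells (all genes: -0.01) and 1.03 against the other Nos1 wells (all genes: 0.01), and all 21 and all 18 differences were positive. Both comparisons use the same members. The rule genes and markers were not left out of the totals of genes tested and called. After scaling, plate values of the classes did not overlap for 252 of the 7028 genes (3.59%) and 71 of the 3663 (1.94%).

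Summed over the list, the members held 14228, 9793 and 13476 CPM on the homeostasis plates and 11223, 8206 and 12038 CPM on the irradiated plates (11494 ± 2257, SD, n = 6 plates). The other Nos1 wells held 5403, 6122 and 6858 CPM and then 6020, 4282 and 4517 CPM (5534 ± 996, SD, n = 6). The wells with fewer Nos1 UMIs held 3614 to 6096 CPM. Every plate's members were above every plate's value of both other classes, as the plot of these genes shows, and the members of homeostasis plate 2 and irradiated plate 2 were the lowest.

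**Figure D2:**
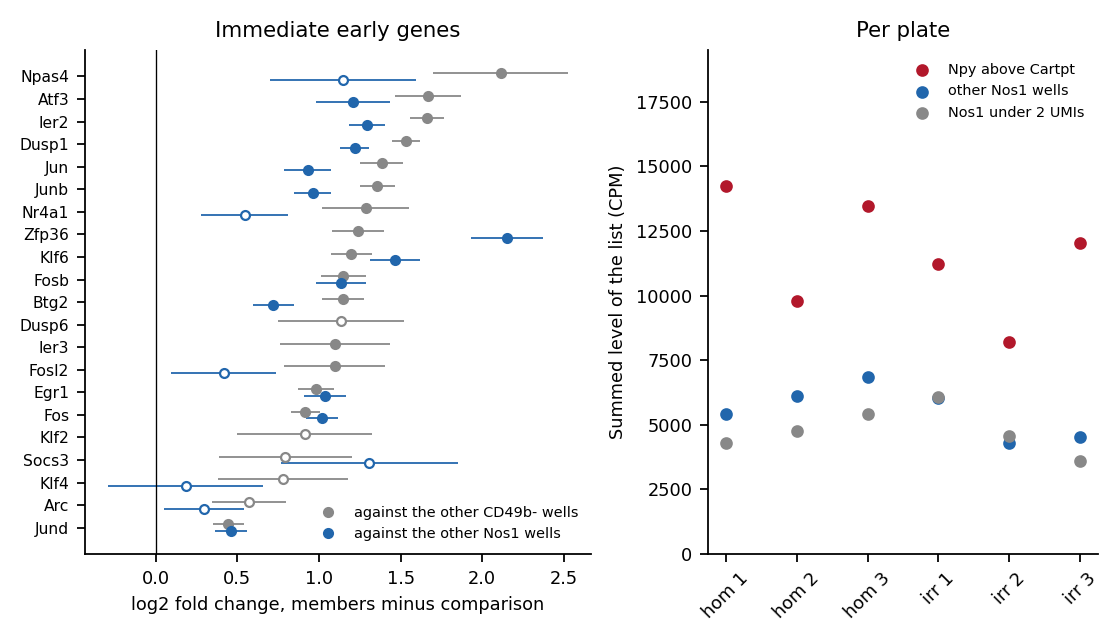
Left, log2 fold change with its standard error for each immediate early gene tested, members against the other CD49b- wells (grey) and against the other Nos1 wells (blue), filled where the edgeR adjusted p was below 0.05; right, the list's summed level in CPM on each of the 6 plates. All differences lie above 0, and the members (red, 8206 to 14228 CPM) lie above both other classes on each plate.

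Fos (chr12:85473890-85477273), the subunit of the AP-1 transcription factor most used as a marker of neuronal activity, stood at 2248, 1507 and 2001 CPM in homeostasis members and 2161, 2080 and 2179 CPM in irradiated members. In the other Nos1 wells it ran from 736 to 1242 CPM, so the classes did not overlap. The difference was 1.02 ± 0.10 (log2 ± SE, edgeR adjusted p = 1.08e-11) against the other Nos1 wells and 0.92 ± 0.09 against all other CD49b- wells. Fos had a UMI in every member well of every plate, with plate medians of 10 to 15.5 UMIs, so its level did not come from a few wells.

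Dusp1 (chr17:26505590-26562128), a phosphatase that switches off MAP kinases, stood at 3247, 1810 and 2191 CPM in homeostasis members and 3038, 1479 and 2370 CPM in irradiated members. The other Nos1 wells ran from 576 to 1183 CPM, below every member value (log2 difference 1.22 ± 0.09, edgeR adjusted p = 4.10e-16). On irradiated plate 2, 1 well held 50 of the 128 Dusp1 UMIs, and without it the level there was 973 CPM. The Dusp1 model overlaps exons of Ergic1 on the other strand, and whether counting used strand is not given in the sources used here.

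Zfp36, which encodes the mRNA-destabilising protein tristetraprolin, stood at 104, 323 and 487 CPM in homeostasis members and 251, 312 and 278 CPM in irradiated members. It stood at 11.1 to 96.0 CPM in the other Nos1 wells (log2 difference 2.15 ± 0.22, edgeR adjusted p = 5.94e-11). The classes did not overlap, although homeostasis plate 1 was close to the top of the other class. In the wells with fewer Nos1 UMIs Zfp36 ran from 87.1 to 254 CPM, so it was lowest in the other Nos1 wells. Klf6, a zinc-finger factor, was higher by 1.47 ± 0.15, Ier2 by 1.30 ± 0.11 and Egr1, a further zinc-finger factor, by 1.04 ± 0.13 on the log2 scale. The AP-1 genes Fosb (1.14), Junb (0.96), Jun (0.93) and Jund (0.46), the stress-induced factor Atf3 (1.21) and the antiproliferative gene Btg2 (0.72) were also higher than in the other Nos1 wells. Npas4, an activity-dependent factor of neurons, and Nr4a1 were called against all other CD49b- wells (2.11 and 1.29) but not against the other Nos1 wells (1.15 and 0.54, edgeR adjusted p = 0.162 and 0.332).

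The called list stood under most settings. With at least 8 Nos1 UMIs all 12 of the 12 calls against the other Nos1 wells were kept. Leaving out 1 plate kept 14 to 16 of the 16 genes and all 12 of the 12, and DESeq2 kept 14 (not Jund or Ier3) and 10 (not Jund or Atf3). In wells thinned to 1000 UMIs, 11 genes of each set could be fitted and 7 and 5 of them were called. Members were shallower than the other Nos1 wells, as given above, and the part of depth in this difference was not tested beyond that thinning.

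The promoters of the 16 genes called against the other CD49b- wells were searched for the binding motifs of 2 factors that are known to drive immediate early genes. The cyclic AMP response element (CRE, TGACGTCA, which reads the same on both strands) was in 2 of the 14 that had a promoter in the RefSeq table (GRCm38.p6), Dusp1 and Btg2, and in 1.79% of all 32851 promoters of 300 bases. The CArG box, the site of serum response factor, which also reads alike on both strands, was in 1 of the 14, Zfp36, and in 1.63% of all promoters. The 250 bases before the start site are shown for these 3 because they were called in both comparisons and hold the motifs, in capitals; a match is a run of letters and not a measured binding site. In Dusp1 (chr17:26508473-26508722, minus strand) the motif begins 143 bases before the start, in Btg2 (chr1:134079156-134079405, minus strand) 166 and in Zfp36 (chr7:28379229-28379478, minus strand) 58.
Dusp1: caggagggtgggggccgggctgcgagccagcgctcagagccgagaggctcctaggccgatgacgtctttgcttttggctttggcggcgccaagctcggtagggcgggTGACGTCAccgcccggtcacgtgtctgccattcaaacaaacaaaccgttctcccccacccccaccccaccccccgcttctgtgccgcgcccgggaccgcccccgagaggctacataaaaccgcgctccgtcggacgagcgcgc
Btg2: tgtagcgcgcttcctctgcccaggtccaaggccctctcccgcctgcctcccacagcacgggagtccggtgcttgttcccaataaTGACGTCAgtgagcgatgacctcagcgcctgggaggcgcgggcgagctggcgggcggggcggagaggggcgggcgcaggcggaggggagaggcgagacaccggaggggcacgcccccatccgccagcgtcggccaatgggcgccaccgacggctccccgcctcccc
Zfp36: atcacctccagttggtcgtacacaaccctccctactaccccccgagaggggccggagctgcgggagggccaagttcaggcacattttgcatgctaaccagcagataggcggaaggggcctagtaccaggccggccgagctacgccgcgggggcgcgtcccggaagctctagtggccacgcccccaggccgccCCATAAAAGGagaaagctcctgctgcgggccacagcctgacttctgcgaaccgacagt

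Most neuropeptide genes other than Npy were lower in the members, but for Penk and Tac1 the difference from the other Nos1 wells lay in wells near the Nos1 threshold. Against the other Nos1 wells 6 of 7 tested peptides were lower and 0 higher, with a median of -1.39. With at least 8 Nos1 UMIs, Gal (-0.92) and Vip (-1.31) kept their calls, Penk and Tac1 did not, and Calcb and Grp fell below the filter on low counts. Against all other CD49b- wells 7 of 8 were lower and 0 higher, with a median of -2.80. Gal, at -0.47 the smallest of the second set, lost its call with no block and with the plate background taken off. Gal (chr19:3409915-3414544) stood at 7151, 7919 and 9612 CPM in homeostasis members and 31644, 8611 and 7694 CPM in irradiated members. In the other Nos1 wells of the same plates it stood at 11496, 28270 and 31605 CPM and then 53127, 26153 and 23507 CPM. It was lower in the members on all 6 plates (-1.39 ± 0.09, edgeR adjusted p = 8.04e-18), although irradiated plate 1 overlaps. Much of the Gal lay in few wells. On irradiated plate 1, 1 member well held 1106 of the 3031 Gal UMIs, and the 5 highest of the 36 other Nos1 wells held 9341 of 13521. Without each plate's highest well in both classes the members stood at 6178, 6663 and 8548 CPM and then 21591, 8285 and 7234 CPM, against 7671, 18083 and 23194 CPM and then 45109, 12901 and 14365 CPM. Without the 5 highest wells of each plate in both classes, the members stood at 4116, 5086 and 5197 CPM and then 16721, 8274 and 6358 CPM. The other Nos1 wells then stood at 5635, 7314 and 10060 CPM and 19614, 7238 and 10378 CPM. Members were lower on each plate but irradiated plate 2, and the ranges overlapped. Wells were removed by the Gal counts compared, and 5 wells are an unlike share of the 2 classes, so this is a description and no test. Median UMIs a well were 26, 48, 50, 93, 59.5 and 38 in the members and 68.5, 82, 89.5, 140, 103 and 109 in the deeper other Nos1 wells, lower in the members of each plate. On irradiated plate 1 the wells with fewer Nos1 UMIs also had a median of 41 Gal UMIs, against 8 to 16.5 on the other 5 plates.

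Vip stood at 729, 943 and 1418 CPM in homeostasis members and 846, 994 and 731 CPM in irradiated members. In the other Nos1 wells it stood at 768, 2038 and 2389 CPM and then 1536, 1803 and 3356 CPM, higher on every plate and overlapping only through homeostasis plate 1 (-1.02 ± 0.12, edgeR adjusted p = 1.09e-09). Against all other CD49b- wells Vip did not pass (-0.01, adjusted p = 0.979). Penk, the enkephalin precursor, was lower by 2.62 ± 0.24 on the log2 scale against the other Nos1 wells. It stood at 10.4, 12.7 and 31.8 CPM in homeostasis members and 41.8, 127 and 87.8 CPM in irradiated members. The other Nos1 wells held 26.2, 25.8 and 36.6 CPM and then 361, 772 and 823 CPM. The wide gap was thus on the irradiated plates, while on each homeostasis plate both classes held at most 9 Penk UMIs. Of the 586 Penk UMIs of the other Nos1 wells, 527 lay in the 44 wells with 2 to 7 Nos1 UMIs, and 1 well of irradiated plate 3 with 2 Nos1 UMIs held 210. In wells with at least 8 Nos1 UMIs the pooled levels were 45.5 CPM in the members and 53.6 CPM in the other Nos1 wells, and the difference was 0.02 (edgeR adjusted p = 0.992).

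Tac1, the substance P precursor, stood at 127 to 380 CPM against 253 to 1123 CPM (-1.37 ± 0.20). The highest member value, on homeostasis plate 2, fell to 119 CPM without 1 well that held 42 of 60 UMIs. In the other Nos1 wells, 754 of 908 Tac1 UMIs lay in the 44 wells with 2 to 7 Nos1 UMIs. With at least 8 Nos1 UMIs the pooled levels were 142 CPM in the members and 140 CPM in the other class, a difference of -0.02 (edgeR adjusted p = 0.989). Calcb (calcitonin gene-related peptide beta, -2.85) and Grp (gastrin-releasing peptide, -3.24) were also lower than in the other Nos1 wells. Sst (somatostatin, -3.89) and Cck (cholecystokinin, -2.13) were lower against all other CD49b- wells. DESeq2 did not call Tac1 in the first comparison or Cck in the second. The plot of levels by plate gives Gal, Vip, Penk and Tac1 with other genes named here.

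**Figure D3:**
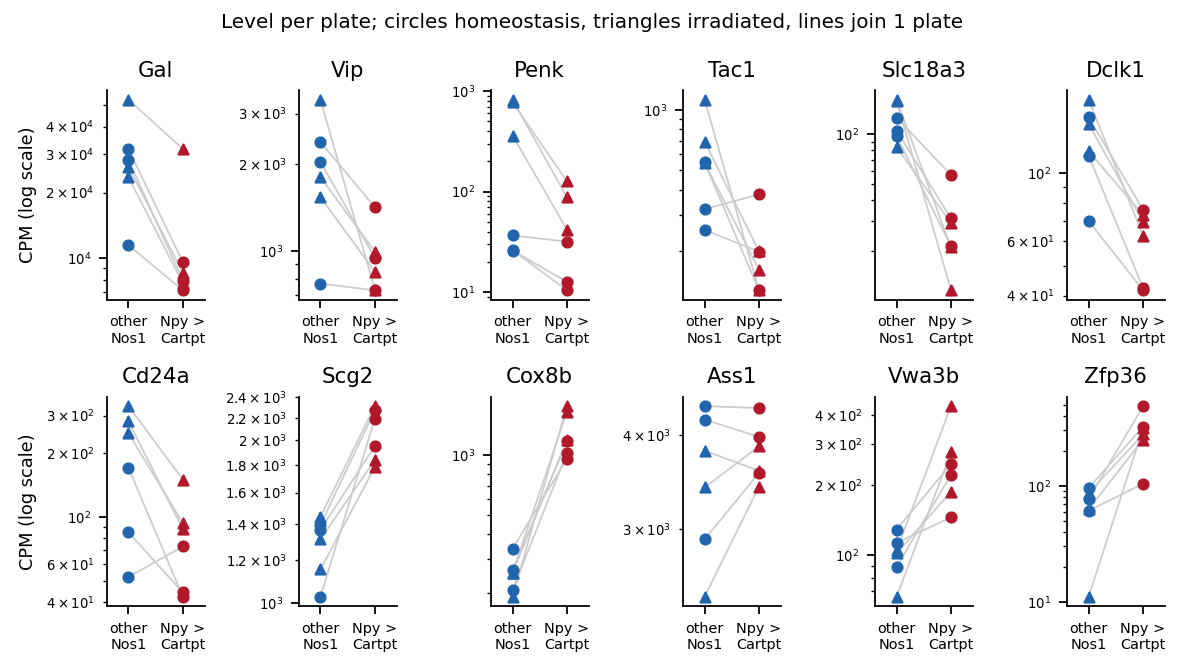
Level in CPM (log axes) of 12 genes in the other Nos1 wells (blue) and the members (red) of each plate; circles are homeostasis and triangles irradiated plates, and grey lines join the 2 classes of 1 plate. Gal, Vip, Penk, Slc18a3 and Dclk1 are lower and Scg2, Cox8b, Vwa3b and Zfp36 higher in the members of all 6 plates, while Ass1 goes both ways.

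Genes of cholinergic excitatory neurons were lower than in the other CD49b- wells. All 7 markers of excitatory motor neurons tested (Chat, Slc18a3, Tac1, Penk, Calb2, Gfra2 and Oprk1) were lower than in the other CD49b- wells, and 0 were higher; their sum was 336 to 842 CPM in the members, 812 to 2516 CPM in the other Nos1 wells and 5490 to 7131 CPM in the wells with fewer Nos1 UMIs. Slc18a3, the vesicular acetylcholine transporter, stood at 31.2, 57.0 and 21.2 CPM in homeostasis members and 20.9, 11.6 and 29.3 CPM in irradiated members. The other Nos1 wells held 83.5 to 161 CPM with no overlap (-1.98 ± 0.31, edgeR adjusted p = 3.04e-06). Of their 181 Slc18a3 UMIs, 151 lay in the 44 wells with 2 to 7 Nos1 UMIs. In wells with at least 8 the pooled levels were 18.2 CPM in the members and 27.2 CPM in the other Nos1 wells, too few UMIs for a test. Chat, choline acetyltransferase, had 2 UMIs in all members together, at 3.34 CPM against 47.4 CPM in the other CD49b- wells (ratio 14.2, 95% counting interval 3.87 to 118). Ache, acetylcholinesterase, was lower in both comparisons (-0.91 and -0.76), the second call being lost with at least 8 Nos1 UMIs (edgeR adjusted p = 0.0653). Slc5a7, the choline transporter, was lower against the other CD49b- wells (-0.75, edgeR adjusted p = 0.0454) and did not pass against the other Nos1 wells (-0.04, adjusted p = 0.969). In all, 4 of 9 cholinergic genes were lower in the first comparison and 2 of 6 in the second, and 0 were higher; the Slc5a7 call was lost without any 1 of 5 plates. Markers of sensory neurons were also lower: 3 of 3 tested against the other CD49b- wells and 2 of 2 (Calcb and the calcium sensor Scgn) against the other Nos1 wells, where both fell below the filter with at least 8 Nos1 UMIs.

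Genes of nitric oxide synthesis and response, Nos1 and Ass1 left out, were mixed against the other CD49b- wells, with 3 of 15 higher and 2 lower. Asl, argininosuccinate lyase, which completes the return of citrulline to arginine, was higher (0.62 ± 0.11, edgeR adjusted p = 2.93e-05), at 453 to 687 CPM against 276 to 440 CPM. Qdpr, which regenerates the synthase cofactor tetrahydrobiopterin, was higher (0.77 ± 0.10) and so was Ddah2 (1.02 ± 0.29), which breaks down methylarginine inhibitors of the synthase. Its paralog Ddah1 was lower (-1.46 ± 0.21), as was Gch1 (-0.53 ± 0.16), the first enzyme of tetrahydrobiopterin synthesis. The calls of Ddah2 and Gch1 were lost with DESeq2 and without single plates. In the Nos1 comparison 0 of 12 were called, in a comparison that made 161 calls in all, so these genes did not pass as a difference between the 2 Nos1 classes.

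Transcription factors of enteric neurons followed the same order. Etv1, known to mark nitrergic neurons, stood at 635, 532 and 466 CPM in homeostasis members and 491, 439 and 351 CPM in irradiated members, above the 134 to 320 CPM of the other CD49b- wells on every plate (1.03 ± 0.13, edgeR adjusted p = 3.74e-09). Against the other Nos1 wells the difference was -0.05 ± 0.12 (adjusted p = 0.909), and 0 of 8 factors were called there. Tbx3 (1.24 ± 0.18) was also higher than in the other CD49b- wells, and Bnc2, Casz1 and Satb1 were lower, the last 3 at 0 CPM in the members of at least 3 plates each.

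Among receptors, 4 of 11 ligand-gated and amine receptors were higher than in the other CD49b- wells and 0 were lower. These were Htr3a (0.69) and Htr3b (1.15), the subunits of the ionotropic serotonin receptor, P2rx2 (0.88), an ATP-gated channel, and Asic2 (1.12), an acid-sensing channel. P2rx2 stood at 312, 228 and 254 CPM in homeostasis members and 261, 104 and 307 CPM in irradiated members, with irradiated plate 2 alone inside the 103 to 149 CPM of the other CD49b- wells. None of the 6 tested against the other Nos1 wells passed the edgeR threshold, where P2rx2 had an adjusted p of 0.0864. Of the trophic factor genes, Gfra1, the GDNF co-receptor (1.52), Ngfr (1.18), Nrg1 (1.21) and Ece1 (0.47) were higher and Gfra2, the neurturin co-receptor, was lower, with 3 UMIs in all members (ratio 17.5, 95% counting interval 5.93 to 85.4, against the other CD49b- wells). In the Nos1 comparison 0 of 9 trophic genes were called. Of the peptide receptors, 4 of 7 were lower against the other CD49b- wells (Oprk1, Avpr1a, Cckar and Calcrl). Cckar had 0 UMIs in the members and was at least 8.70-fold lower, counting 3 UMIs over the class as the floor; Ramp1 was higher against the other Nos1 wells (0.46), a call lost without single plates.

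Peptide processing genes divided between the 2 directions in the Nos1 comparison. Scg2, the granin secretogranin II, stood at 2269, 1950 and 2191 CPM in homeostasis members and 1837, 2312 and 1784 CPM in irradiated members. The other Nos1 wells held 1028 to 1444 CPM, with no overlap (0.66 ± 0.08, edgeR adjusted p = 2.85e-08). The wells with fewer Nos1 UMIs held 1886 to 2827 CPM, and Scg2 did not pass against all other CD49b- wells (0.09, adjusted p = 0.639). Pcsk2, a prohormone convertase, was higher (0.38) and its relative Pcsk1 lower (-1.26), as were Chgb (-0.69) and Resp18 (-0.36), giving 2 of 14 higher and 3 lower. DESeq2 called Scg2 alone of these 5, and with at least 8 Nos1 UMIs Scg2 (0.75) and Pcsk2 (0.41) kept their calls, Chgb and Resp18 did not and Pcsk1 fell below the filter. Against the other CD49b- wells 1 of 14 was higher (Chga) and 3 lower. Synaptic vesicle genes were lower where called: 5 of 20 (Snap25, Syt1, Syn2, Sv2c and Rab3a) and then 2 of 16 (Syn2 and Rab3a, -0.62 and -0.48), with 0 higher.

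The gene that carries the sorting label, Dclk1, a microtubule-associated kinase, was among the axon genes that were lower. It stood at 41.6, 76.0 and 42.3 CPM in homeostasis members and 62.6, 69.4 and 73.1 CPM in irradiated members, against 128 to 169 CPM in the other CD49b- wells with no overlap (-1.34 ± 0.22, edgeR adjusted p = 3.54e-06). The other Nos1 wells held 69.8 to 173 CPM (-1.10 ± 0.24, adjusted p = 0.00151; DESeq2 did not call it). Gap43, a growth cone protein, and Cd24a, a surface glycoprotein, were also lower in both comparisons (-0.73 and -0.62; -1.58 and -1.24). Of this list, 2 of 23 genes were higher (Map1b and Tuba1a) and 6 lower against the other CD49b- wells, and 0 of 18 higher and 3 lower against the other Nos1 wells. Epha5 (0.99 and 0.45) and Ncam1 (0.37 and 0.54), a guidance receptor and an adhesion molecule, were higher in both, as 2 of 17 and 2 of 11 guidance genes. With at least 8 Nos1 UMIs the calls of Gap43 (-0.05, edgeR adjusted p = 0.91) and Epha5 (0.24, adjusted p = 0.292) against the other Nos1 wells were lost, and those of Dclk1, Cd24a and Ncam1 were kept.

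Cytochrome oxidase subunits other than Cox8b went the other way. Against the other Nos1 wells 4 of 12 were lower (Cox8a, Cox5a, Cox5b and Cox6a1), 0 were higher and all 12 differences were negative, with a median of -0.24. Cox5b stood at 583, 658 and 508 CPM in homeostasis members and 668, 659 and 483 CPM in irradiated members, against 809 to 953 CPM in the other Nos1 wells, with no overlap (-0.55 ± 0.10, edgeR adjusted p = 0.000158). Cox8a, the ubiquitous partner isoform of Cox8b, was lower by 0.30 ± 0.09 on the log2 scale (adjusted p = 0.0354), but its call and those of Cox5a and Cox6a1 were lost with DESeq2 and without single plates. With at least 8 Nos1 UMIs Cox5b and Cox8a kept their calls. Against the other CD49b- wells 3 of 12 were lower (Cox5b, Cox6a1 and mt-Co1). The summed level of all 19 subunits, Cox8b included, was 10741 to 11422 CPM in the members and 11161 to 12371 CPM in the other Nos1 wells, which overlap. Bglap2 and Bglap3, neighbours and near copies of Bglap, were higher than in the other CD49b- wells (1.45 and 1.42), as 2 of 5 tested genes of the osteocalcin list, and Bglap2 passed narrowly against the other Nos1 wells (0.40, adjusted p = 0.0352, lost without each irradiated plate, and -0.07 with at least 8 Nos1 UMIs).

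Of the other lists, the channels gave 2 of 20 higher (Cacna2d1 and Kcnab1) and 2 lower against the other CD49b- wells and 1 of 11 higher (Cacna2d1, lost at 0.0515 with at least 8 Nos1 UMIs) against the other Nos1 wells. The calcium-binding proteins gave 1 of 15 higher (Ncald) and 4 lower (Calb2, Scgn, Hpcal1 and Necab2) and then 1 of 14 lower (Scgn). Among other transmitter genes 1 of 4 was lower (Dbh) and 0 were tested against the other Nos1 wells. Interferon response genes were lower in 4 of 13 (Ifit1, Ifitm2, Ifitm3 and Psmb8) and antigen presentation genes in 1 of 7 (H2-D1) against the other CD49b- wells, with 0 higher and 0 of 6 and 0 of 7 called against the other Nos1 wells. The p53 list gave 2 of 12 and 2 of 5 higher, in both cases Btg2 and Atf3, which the immediate early list also holds. Unfolded protein genes gave 2 of 18 lower (Herpud1 and Asns) and 0 of 15, cholesterol genes 0 of 22 and 0 of 15, and the satellite-like gene models 4 of 5 lower and 0 of 2. The satellite-like models summed to 52.0, 6.33 and 169 CPM in homeostasis members and 10.4, 0 and 205 CPM in irradiated members. In the other CD49b- wells they summed to 42.7, 38.2 and 13.8 CPM and then 722, 509 and 346 CPM. Members were thus lower on every irradiated plate but, among homeostasis plates, on plate 2 alone. The pan-neuronal markers gave 4 of 11 lower (Snap25, Syt1, Gap43 and Nefl) and then 1 of 10 lower (Gap43, as above), with 0 higher, and Gal and Vip, listed as markers of Cartpt and Vip neurons, are given above. Among markers of other cell types, the fibroblast genes Col3a1 and Dcn were lower against the other CD49b- wells, and the glial calcium-binding gene S100b was higher against the other Nos1 wells (1.64, edgeR adjusted p = 0.0406, lost with DESeq2 and below the filter with at least 8 Nos1 UMIs). The fibroblast signal lay mostly on plate 3 of each treatment. Summed over that list, the other CD49b- wells held 1.94, 0 and 451 CPM on homeostasis and 22.4, 0 and 311 CPM on irradiated plates. Members held 0, 0 and 21.2 CPM and then 10.4, 0 and 73.1 CPM.

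Genes with the highest fold in the members against the other Nos1 wells, beside the immediate early genes Zfp36, Klf6, Ier2, Dusp1 and Fosb, were Coch, Lrfn5, Man1a, Pxylp1, Csdc2, Nxph3, Vwa3b, Fbln7, Gm26532 and Il11ra1. Coch, the extracellular matrix protein cochlin, stood at 31.2, 44.3 and 127 CPM in homeostasis members and 62.6, 69.4 and 102 CPM in irradiated members, against 11.1 to 30.9 CPM (2.05 ± 0.47, edgeR adjusted p = 0.00291). Lrfn5, a synaptic adhesion protein, stood at 69.6 to 146 CPM against 12.4 to 47.2 CPM (1.91 ± 0.37). Vwa3b stood at 146, 247 and 222 CPM and then 188, 277 and 439 CPM, against 66.5 to 129 CPM (1.30 ± 0.20). Lrfn5 and Vwa3b did not overlap between the classes, while for Coch the lowest member plate (31.2 CPM) and the highest other plate (30.9 CPM) were level and overlapped once scaled. The calls of Man1a, Pxylp1, Csdc2 and Fbln7 were lost without 1 or more plates, those of Pxylp1, Nxph3 and Fbln7 with at least 8 Nos1 UMIs, and Il11ra1 shares 57.7% of its 31-base words with other gene models.

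Against all other CD49b- wells the leading genes were Fam181b, Coch, Eepd1, Lsp1, Pon3, Abcb1b, Fbln7, Pxylp1, Plpp3, Vwa3b, Nnmt, Man1a, Nxph3, Ptprz1 and Dok5. Fam181b stood at 20.8, 31.7 and 52.9 CPM in homeostasis members and 41.8, 23.1 and 58.5 CPM in irradiated members, against at most 4.74 CPM on any plate in the other CD49b- wells (3.31 ± 0.70, edgeR adjusted p = 0.000279). Abcb1b, a P-glycoprotein drug transporter, stood at 31.8 to 146 CPM against 3.05 to 28.2 CPM (2.39 ± 0.38). Nxph3, the neurexin ligand neurexophilin 3, stood at 46.2 to 176 CPM against 7.67 to 35.9 CPM (2.01 ± 0.33), with all members above all others as for the preceding pair. Counts were low for several of these genes. Fam181b had 22 UMIs in all members and 12 in the other CD49b- wells, and Eepd1, Pon3 and Nnmt had 21, 23 and 26 member UMIs. Pon3 and Ptprz1 overlapped between the classes.

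Several genes were at or near 0 in the members. B230312C02Rik had 0 UMIs against 381 in the other CD49b- wells, at least 22.4-fold lower with the same floor, and Nefl, the light neurofilament, was at least 10.7-fold lower. Htr2b, a serotonin receptor, was at least 6.64-fold, Nnat at least 8.40-fold, Caln1 at least 6.17-fold, Igfbp4 at least 5.35-fold and Ecel1 at least 3.94-fold lower. Ndufa4l2 had 1 UMI against 527 (ratio 92.9, 95% counting interval 16.6 to 3677) and Rbfox1, a neuronal splicing factor, 1 against 226 (ratio 39.8, interval 7.08 to 1581). Against the other Nos1 wells the lowest were Syt6, Pcp4, Scgn, Serpini1, Myl1, Penk, Nrsn2, Nrip3, Spock3 and Ltk. Pcp4, which binds calmodulin, stood at 62.5, 12.7 and 10.6 CPM in homeostasis members and 52.2, 11.6 and 0 CPM in irradiated members, against 105 to 369 CPM (-3.03 ± 0.31, edgeR adjusted p = 5.22e-11), and Serpini1, neuroserpin, stood at 6.33 to 46.2 CPM against 73.1 to 271 CPM (-2.83 ± 0.31). Neither overlapped. With at least 8 Nos1 UMIs Pcp4 (-1.97), Serpini1 (-2.05), Nrip3 and Ltk kept their calls, Penk did not, and Syt6, Scgn, Myl1, Nrsn2 and Spock3 fell below the filter. These intervals and floors cover counting error only.

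The share of members was compared between treatments over plates. Of retained CD49b- wells they made up 17.2%, 26.9% and 14.3% on the homeostasis plates (19.5% ± 6.62, SD, n = 3) and 20.7%, 13.5% and 14.1% on the irradiated plates (16.1% ± 3.97). The difference of -3.39 percentage points lay within the spread of the plates (exact permutation test, two-sided, p = 0.5), and it was 0.339 without homeostasis plate 2. With at least 8 Nos1 UMIs, a setting chosen after seeing the data, it was -3.92 points (exact permutation p = 0.1). The irradiated plates (14.1%, 13.5% and 14.1%) were then all below the homeostasis plates (16.1%, 23.1% and 14.3%), the closest narrowly. The remaining forms of the rule gave -4.52 to -1.84 points (exact permutation p = 0.4 to 0.6). Of wells with at least 2 Nos1 UMIs, members made up 53.3%, 43.8% and 35.1% on the homeostasis plates (44.1% ± 9.10) and 34.5%, 32.4% and 25.5% on the irradiated plates (30.8% ± 4.71). All irradiated plates were below all homeostasis plates, a difference of -13.2 points (exact permutation test, two-sided, p = 0.1, the smallest that 3 against 3 allows). It was -17.7 to -8.61 points without 1 plate and -15.1 with the plate background taken off. Other forms of the rule gave smaller differences with overlapping plates: -9.43 with at least 1 Nos1 UMI (exact permutation p = 0.2), -10.2 with at least 3 (p = 0.2), -11.4 with at least 8 (p = 0.2), -9.43 with Npy at least 2 UMIs above Cartpt (p = 0.3) and -12.9 in wells thinned to 1000 UMIs (p = 0.2). The Cartpt background given above, with median counts of 1 to 3 UMIs on homeostasis and 3 to 7 UMIs on irradiated plates, bears on the rule, and its part in the difference was not tested beyond taking it off.

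**Figure D4:**
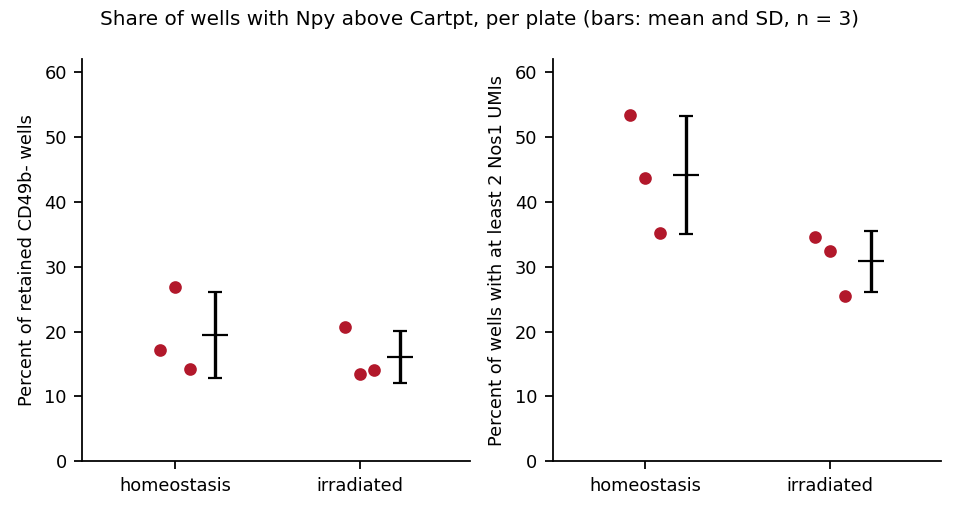
Share of members among retained CD49b- wells (left) and among wells with at least 2 Nos1 UMIs (right), 1 point a plate, with mean and SD bars (n = 3). The irradiated plates overlap the homeostasis plates on the left and lie below them on the right (25.5% to 34.5% against 35.1% to 53.3%).

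Few genes passed between irradiated and homeostasis members. Of 1885 genes tested over 3 plates against 3, 3 were called (0.159%), 2 higher and 1 lower, by edgeR's quasi-likelihood test with Benjamini-Hochberg adjustment, and 160 had an unadjusted p below 0.05. They were Htr3a, Calb2 and Cartpt. Cartpt belongs to the rule, so it is counted among the 3 but its call is not read as a result, and its levels are only described. DESeq2 called 0, with 58 at an unadjusted p below 0.05. Of the 1885 genes, 234 (12.4%) had no overlap between the plates of the 2 treatments, so a lack of overlap was common here.

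Htr3a (chr9:48899213-48911099) was higher in irradiated members, at 720, 786 and 1097 CPM against 323, 468 and 455 CPM, with no overlap (1.06 ± 0.19, edgeR adjusted p = 0.0143). The rise was not carried by single wells: without each plate's highest well the levels were 642, 754 and 968 CPM against 282, 407 and 425 CPM. It had a UMI in 11 of 16, 18 of 21 and 11 of 13 homeostasis members, with medians of 2, 3 and 3 UMIs, and in 16 of 19, 11 of 12 and 12 of 12 irradiated members, with medians of 3, 7 and 5 UMIs. In the other CD49b- wells Htr3a stood at 239, 290 and 374 CPM on homeostasis and 318, 566 and 515 CPM on irradiated plates, and the difference of the 2 changes did not pass (0.39 ± 0.21, adjusted p = 1). The call was lost with DESeq2 (adjusted p = 0.194), with at least 3 Nos1 UMIs (0.0848), with members and other wells in 1 fit (0.196) and without homeostasis plate 1 (0.149), homeostasis plate 3 (0.0517) or irradiated plate 3 (0.172). The numbering of libraries in the labels restarts, which sorts the plates into 3 sets. In the 1 set with both treatments, plate 1 of each, the levels were 323 and 720 CPM. Each other set holds 1 treatment only, so treatment and set cannot be told apart there. With the set as a term the difference was 1.21, which rests on plate 1 of each treatment alone.

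Calb2 (chr8:110137502-110168210), the calcium-binding protein calretinin, stood at 291, 323 and 402 CPM in homeostasis members and 94.0, 104 and 58.5 CPM in irradiated members (-1.90 ± 0.31, edgeR adjusted p = 0.00492). The groups do not overlap, but 1 well of homeostasis plate 2 held 26 of 51 UMIs and 1 of homeostasis plate 3 held 30 of 38. Without each plate's highest well the levels were 263, 166 and 91.9 CPM against 75.3, 89.7 and 32.1 CPM, with homeostasis plate 3 next to irradiated plate 2. The well of plate 2 had 2 Nos1, 2 Npy, 1 Cartpt, 9 Tac1 and 6 Slc18a3 UMIs and no Cox8b or Bglap UMI, near the threshold of the rule, whereas that of plate 3 had 9 Nos1, 120 Npy and 10 Cox8b UMIs. The call was lost with at least 1, 3 or 8 Nos1 UMIs (edgeR adjusted p = 0.235, 0.0848 and 0.0917), with Npy at least 2 UMIs above Cartpt (0.0893) and with DESeq2 (0.0507). With the set of libraries as a term the difference was -1.56, which again rests on plate 1 of each treatment alone and cannot test the call.

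Cartpt is a gene of the rule, which caps it in every member below Npy, so its levels of 551 to 720 CPM in homeostasis and 728 to 1848 CPM in irradiated members are a description. Irradiated plate 2, where 728 CPM was close to the 720 CPM of homeostasis plate 3, was the lowest irradiated plate.

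**Figure D5:**
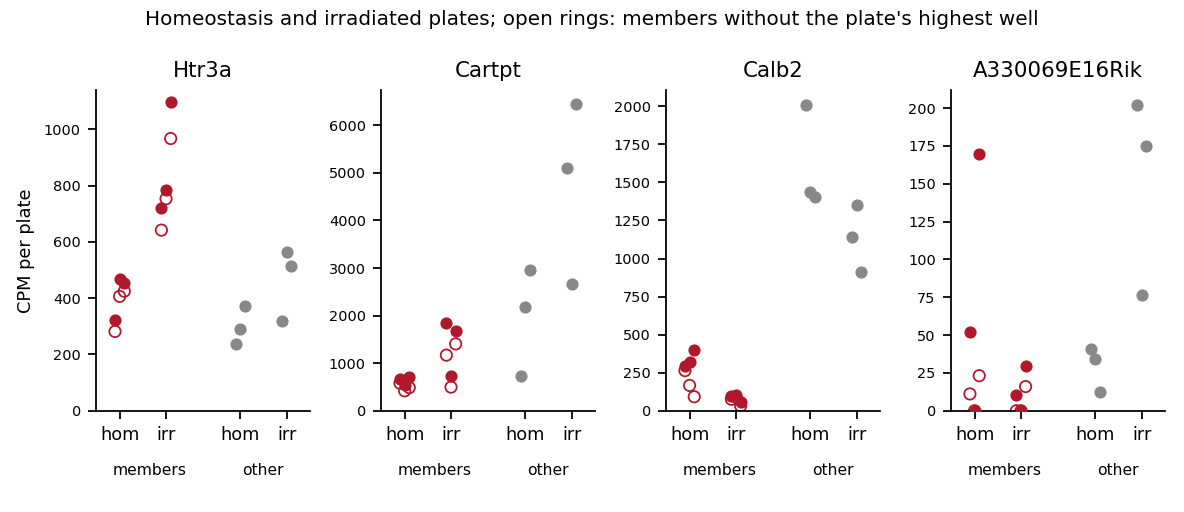
CPM per plate of the 4 genes called between treatments or in the interaction, homeostasis (hom) and irradiated (irr), in the members (red) and the other CD49b- wells (grey); open rings give the members without the plate's highest well, and Cartpt is shown as a gene of the rule. Htr3a stays apart without those wells (642 to 968 against 282 to 425 CPM), while for Calb2 and A330069E16Rik the homeostasis values drop towards the irradiated ones.

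The irradiation difference of the members differed from that of the other CD49b- wells for 2 of 7028 genes (0.0285%), A330069E16Rik and Calb2, by the edgeR interaction test. A330069E16Rik, a long non-coding RNA gene listed with the satellite-like models, had 24 UMIs in all members, 14 of them in 1 well of homeostasis plate 3, and a difference of -4.83 ± 0.86 (adjusted p = 0.00131), which lost its call without homeostasis plate 3 (0.997) or irradiated plate 1 (0.26). In the other CD49b- wells it stood at 40.8, 34.2 and 12.3 CPM on homeostasis plates and 202, 76.3 and 175 CPM on irradiated plates. Calb2 changed by -1.50 ± 0.31 more than in the other wells (adjusted p = 0.0162), a call lost without any 1 plate other than homeostasis plate 1 (0.0557 to 0.486), with at least 1, 3 or 8 Nos1 UMIs (0.773, 0.464 and 0.528) and with Npy at least 2 UMIs above Cartpt (0.212). Leaving out the 3 member wells of over 10 Calb2 or A330069E16Rik UMIs, all on homeostasis plates, gave -3.19 and -0.62. Those wells were chosen after seeing the data by the values tested, and in the members only, so the differences had to shrink and this is no test of them. DESeq2 called 0 genes in this test, with 80 at an unadjusted p below 0.05.

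Beside Htr3a, Calb2 and Cartpt, 0 genes of any list were called between treatments in the members by edgeR. Immediate early genes gave 0 of 13 called in the members, with 10 negative and a median of -0.46 (all genes: 0.01); Btg2 stood at 760, 874 and 974 CPM on homeostasis and 407, 358 and 644 CPM on irradiated plates (-0.88, edgeR adjusted p = 0.072). Nr4a1, an orphan nuclear receptor, stood at 167, 146 and 159 CPM against 31.3, 23.1 and 73.1 CPM (-1.89, edgeR adjusted p = 0.086). Its groups did not overlap, as for 12.4% of all genes tested. Bglap2 (0.96, adjusted p = 0.072) and Bglap3 (1.27, adjusted p = 0.086) were near the threshold in the other direction. The p53 targets gave 0 of 4, the interferon genes 0 of 4, antigen presentation 0 of 5, all 5 positive, and cholesterol synthesis 0 of 9, all 9 negative with a median of -0.29. Of the members' markers outside the rule, Ass1 (-0.10), Rprml (-0.24), Bglap (0.73) and Cox8b (0.59) did not pass, with adjusted p of 0.126 and 0.186 for the last 2. With 3 plates a group and 12 to 21 cells a plate, these are limits of detection and not a showing that levels were equal.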

How the data were processed

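Single cells were sorted into 96-well plates, reverse transcribed in the wells and sequenced from Nextera XT libraries, per the labels' protocols. The authors deposited raw UMI counts per gene and well (50508 gene models, 1150 wells). The submitters' processing notes name featureCounts 1.5.3 and STAR 2.5.3a and list GRCh38 as well as GRCm38, and a strand setting is not given in the sources used here. Retained wells had at least 1000 UMIs, 500 genes and under 20% mt- UMIs. Wells held 1 cell by design and no doublet caller was run.

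Members and gene lists (35, of which 12 are cell type markers) were chosen with earlier results of these data known. Counts were summed per plate and class, so the plate, a pool of 2 mice, is the replicate. Sums were scaled by TMM, filtered with filterByExpr and tested with edgeR 4.0.16 (R 4.3.3) by the quasi-likelihood test, with the plate as a block for class comparisons, and p-values were adjusted by Benjamini-Hochberg over all genes tested. Levels are unscaled CPM of each sum. Rule genes and markers entered the fits between classes and were not left out of the totals of genes tested and called. Their own test results between classes are not given. Shares were compared by an exact permutation test written with numpy 2.4.6, and counting intervals came from scipy 1.17.1. Totals were 543087 to 747272 UMIs a CD49b- plate.

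Genes were named by rule: the 15 highest and 10 lowest log2 differences of each class comparison with an adjusted p below 0.05, one sign on every plate and at least 20 CPM, all genes called for irradiation, and called list genes. Shared 31-base words and positions come from GENCODE vM21 transcripts on GRCm38. Alternatives were DESeq2 1.42.0, its size factors, no filter, no block, other well and rule thresholds, thinning to 1000 UMIs, leaving out each plate, and 3 chosen after seeing the data. Scripts were tested on simulated data. One called transcription factor is not reported here.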

Additional observations from a re-analysis of the deposited data

Results flagged for a closer look

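Both genes called in the test of whether the irradiation difference of the members differs from that of the other CD49b- wells are given here because that difference was itself tested. A330069E16Rik had a difference of -4.83 (log2) and Calb2 one of -1.50. Single member wells of the homeostasis plates held much of both genes, as given above.

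Signal also appeared in plates that the comparisons do not use. On the CD49b+ plate of irradiated pool 1, Cartpt had a UMI in 100% of wells, against 0% to 1.24% on the homeostasis CD49b+ plates. On the CD49b+ plate of irradiated pool 2, Gal had a UMI in 100% of wells, against 2.90% to 9.72% on the homeostasis CD49b+ plates. On the first of these plates, 92.6% of the 27 wells under 1000 UMIs also had a Cartpt UMI. Npy was in 58.0%, 67.1% and 55.0% of retained wells on the 3 irradiated CD49b+ plates, against 18.5% to 36.1% on the homeostasis CD49b+ plates.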

How the results depend on the processing

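Counts of called genes depended on the tool and the depth. The 488 calls against the other CD49b- wells became 286 with DESeq2 and 75 of 1121 genes in wells thinned to 1000 UMIs, and were 403 to 448 without 1 plate and 352 with no replicate block. The 161 against the other Nos1 wells became 64 with DESeq2, 88 with no replicate block, 251 with a Nos1 threshold of 1 UMI, 106 with one of 8 UMIs and 21 of 536 genes in thinned wells, and were 104 (without irradiated plate 3) to 167 (without homeostasis plate 1). Of these calls DESeq2 shared 283 and 64. The 3 irradiation calls became 0 with DESeq2, 0 with a Nos1 threshold of 3 UMIs (159 at an unadjusted p below 0.05), 21 with no gene filter and 1 to 15 without 1 plate, the highest without irradiated plate 1. The 2 interaction calls became 0 with DESeq2, 0 with wells left out that were picked on those genes' values (305 at an unadjusted p below 0.05) and 0 to 2 without 1 plate. The share of members among retained wells changed sign without homeostasis plate 2, to 0.339 points (range -5.98 to 0.339), and that among Nos1 wells was -17.7 to -8.61. Col3a1 (0.67 with DESeq2) and H2-D1 (0.10 in thinned wells) changed sign against the other CD49b- wells, and Penk (0.022) and Bglap2 (-0.072) against the other Nos1 wells with the Nos1 threshold of 8. The cause of these changes was not tested, apart from the fewer genes that thinning leaves to test. The plate is a block only between classes of 1 plate; treatments lie on different plates, so no pairing of treatments was made.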
